A study of Homo sapiens with 6 samples.

Results

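The replication-dependent histone genes are the clustered genes that make the core histones H2A, H2B, H3 and H4 and the linker histone H1. They were taken as all rows of the count data whose symbol begins with HIST1H, HIST2H, HIST3H or HIST4H, does not end in PS and digits, and holds at least 10 counts in total over the 6 samples. Of 89 histone rows among the 56638 symbols, 13 ended in PS and digits and 41 held fewer than 10 counts, which left 35 genes. These are 3 genes of H1, 7 of H2A, 13 of H2B, 7 of H3 and 5 of H4. By cluster, 26 are HIST1 genes, 5 HIST2, 3 HIST3 and 1 HIST4.

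RNA-seq was carried out on HCT116, an established line of human colorectal carcinoma cells. One group was wild type (WT, n = 3) and the other was METTL3-KO (n = 3), in which METTL3, the catalytic subunit of the writer complex that places N6-methyladenosine on mRNA, was knocked out by CRISPR/Cas9 as the labels describe it. By the study's methods the knockout line was a single clone, selected with puromycin after lentiviral delivery of the nuclease and guide, so its own history and the loss of METTL3 cannot be told apart. The deposited files bear other names than the labels, NC for the WT and SiM3 for the METTL3-KO samples, and the groups here follow the labels. Nothing says that the samples of a group were separate cultures, and p-values then measure only the spread between these samples.

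Most mRNAs of these genes are made in S phase, when newly copied DNA has to be packed, and they end in a short hairpin, the stem-loop, instead of a poly(A) tail. The stem-loop binding protein SLBP and the U7 small nuclear RNP direct the cut just after this hairpin. Some of the genes also give polyadenylated mRNA when transcription runs past the stem-loop to a downstream poly(A) signal, in particular in cells that leave the cycle or differentiate. The library kit selects polyadenylated RNA with oligo-dT, so that these data hold mainly the polyadenylated forms and say little about the stem-loop forms.

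The stem-loops are shown because they are the element that separates the forms of mRNA. Of the 35 genes, 33 were matched to GENCODE release 44 on GRCh37 and 31 of these have an annotated stop codon. All 31 held a sequence with no mismatch to the 16-base histone stem-loop consensus, between 22 and 56 bases after the stop codon. The stem-loop (capitals) and 5 bases on each side are given below, 5′ to 3′ on the strand of the gene, for the most abundant H2B gene, the H2B gene with the largest rise among those that passed, the H3 gene that rose, an H2B gene that did not pass the test, and the gene of the HIST4 cluster.

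HIST1H2BK (capitals at chr6:27114145-27114160, minus strand): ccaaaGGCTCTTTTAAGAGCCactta
HIST1H2BD (chr6:26158815-26158830, plus strand): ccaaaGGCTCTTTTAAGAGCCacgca
HIST1H3E (chr6:26225824-26225839, plus strand): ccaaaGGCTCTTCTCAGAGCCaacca
HIST2H2BE (chr1:149857738-149857753, minus strand): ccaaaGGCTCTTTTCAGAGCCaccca
HIST4H4 (chr12:14923658-14923673, minus strand): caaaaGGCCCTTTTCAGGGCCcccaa

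The sequence shown for HIST2H2BE was the most common, in 16 of the 31 genes, of which 3 rose in knockout cells. That of HIST1H2BK and HIST1H2BD was held by 6 genes, of which 4 rose. Over all tested genes 13.3% rose by the test given below. The sequence of HIST1H3E was held by that gene alone among the 31. A perfect stem-loop was therefore present in genes that passed the test and in genes that did not. It was also found in all 68 histone rows with an annotated stop codon, so its presence cannot tell these genes apart.

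The octamer ATTTGCAT, the sequence bound by the factor OCT1 (POU2F1) in H2B promoters, was searched on both strands of RefSeq promoters (GRCh38.p14, 250 bases before to 50 bases after the start). It was present in 1.77% of 35116 promoters of all genes. Among the histone genes here, 31 have a promoter in this table and 11 held the octamer, namely 6 of 9 H2B genes, 4 of 7 H2A genes, 1 of 7 H3 genes and no H1 or H4 gene. The octamer (capitals, with 10 bases on each side) is shown for 4 promoters of H2B genes.

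HIST1H2BC (chr6:26124032-26124059 of GRCh38): ttcatacctcATTTGCATagctctgccc
HIST1H2BJ (chr6:27132825-27132852 of GRCh38): tcttcaccttATTTGCATaagcgattct
HIST1H2BK (chr6:27146887-27146914 of GRCh38): tcttcaccttATTTGCATgagaggtcct
HIST2H2BE (chr1:149886711-149886738 of GRCh38): cggagccctaATTTGCATaaggtggtta

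In 3 of these promoters the octamer also lies in the promoter of an H2A gene that starts on the other strand and holds it opposite to its own strand, HIST1H2AC for HIST1H2BC, HIST1H2AG for HIST1H2BJ and HIST2H2AC for HIST2H2BE. Both genes of the first pair rose, 1 of the second and none of the third, where 13.3% of all tested genes rose. The other motifs searched were CCAAT, in 27 of the 31 histone promoters and 34.6% of all promoters, and TATAAA, in 19 of 31 and 11.5%. A match is a description of the letters, not a site.

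The samples held 20936091 to 30142144 counts on genes. The level is given as CPM, the count scaled to a common library size after TMM normalization. METTL3 itself was at 30.6, 30.2 and 29.2 CPM in WT and at 7.26, 7.69 and 6.89 CPM in knockout cells (log2 fold change -2.04, SE 0.0906, adjusted p = 1.59e-07, edgeR). Replicate 3 was far from replicates 1 and 2 of its group. Its chi-square per gene, near 1 for sampling noise alone, was 20.7 and 20.8 in WT and 7.61 and 10.1 in knockout cells, whereas replicates 1 and 2 differed by 2.44 in WT and 2.23 in knockout cells. Its deviations followed transcript length, with Spearman's rho across 10033 genes of 0.66 in WT and -0.60 in knockout cells. Values without both replicates 3 are given beside the results; by that fit, on 21242 genes, 21.4% of genes were higher and 22.7% lower. Of the markers of HCT116's epithelial origin, all 7 were above 1 CPM, and their sum was 5798 to 7190 CPM in WT and 8293 to 9248 CPM in knockout cells. The sum of 6 fibroblast markers was 4.92 to 6.74 CPM in WT and 8.86 to 9.86 CPM in knockout cells, with COL1A2 and COL3A1 at 0, and that of 5 leukocyte markers was 5.53 to 6.90 and 6.40 to 10.6 CPM. Their part in the results was not tested.

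Compared with WT cells, METTL3-KO cells had higher levels of 8 of the 35 histone genes and lower levels of none, at an adjusted p under 0.05 by edgeR's quasi-likelihood test. Among all 22452 genes tested, 13.3% were higher and 13.2% lower by the same rule. The 8 genes were the linker histone gene HIST1H1C, the H2A genes HIST1H2AC and HIST3H2A, the H2B genes HIST1H2BC, HIST1H2BD, HIST1H2BJ and HIST1H2BK, and the H3 gene HIST1H3E. No gene of H4 and none of the HIST2 and HIST4 clusters was among them. At an unadjusted p under 0.05 by the same test, 9 genes were higher and 0 lower, the ninth being HIST3H2BB. Of all 22452 genes tested, 4139 were higher and 4281 lower at that unadjusted threshold. At an adjusted p under 0.05, DESeq2 also called 8 histone genes higher and 0 lower. The median log2 fold change of the 35 genes was 0.22, against -0.02 over all tested genes, with 20 genes above 0 and 15 below. This median was 0.04 without METTL3-KO replicate 2 and 0.25 to 0.33 without any other single sample.

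Depth limited what could be seen. The 35 genes together held 10138 counts, 0.0047% to 0.00896% of the counts of a sample, and 36.0% of these fell on HIST1H2BK alone. The 8 genes that passed held 82.4% of them. All 8 were among the 19 genes with at least 60 counts in total, and of all tested genes of that depth 17.6% were called higher and 17.8% lower. Of the 16 genes with 10 to 59 counts none passed, and of all 5133 tested genes in that range 2.82% were called higher. Without both replicates 3, HIST2H2BF, an H2B gene with 42 counts, passed as well (log2 fold change 1.81, adjusted p = 0.0159, edgeR).

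HIST1H2BK encodes an H2B histone and is known for a polyadenylated mRNA. Its counts were 460, 417 and 310 in WT and 957, 699 and 804 in knockout cells, or 16.8, 18.4 and 14.5 CPM against 31.7, 31.8 and 34.2 CPM. All METTL3-KO samples lay well above all WT samples. The level was 1.96-fold higher (log2 fold change 0.97, SE 0.0980, adjusted p = 2.84e-05, edgeR). It passed with each sample left out in turn, and without both replicates 3 the log2 fold change was 0.85.

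HIST1H2BD, another H2B gene with a known polyadenylated form, had the largest change among the 8 genes that passed. It stood at 2.80, 3.05 and 1.88 CPM in WT and at 8.76, 8.83 and 8.84 CPM in knockout cells. The METTL3-KO samples were nearly equal and the highest WT sample was far below them. The rise was 3.39-fold (log2 fold change 1.76, SE 0.158, adjusted p = 1.28e-05, edgeR). Without both replicates 3 it was 1.59 on the log2 scale, below HIST2H2BF at 1.81 and HIST1H2BJ at 1.73.

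HIST1H2BC and HIST1H2AC form a divergent pair, whose start sites lie 219 bases apart on opposite strands. HIST1H2BC held 7 counts in each WT sample and 23, 18 and 27 counts in the knockout samples (log2 fold change 1.60, SE 0.345, adjusted p = 0.00468, edgeR). HIST1H2AC, the H2A gene with the most counts, was at 9.72, 10.6 and 8.25 CPM in WT and at 14.4, 17.2 and 14.8 CPM in knockout cells (log2 fold change 0.70, SE 0.118, adjusted p = 0.000982). The groups did not overlap for either gene. Both genes of this pair thus rose, and both passed with each sample left out in turn and without both replicates 3 (log2 fold changes 1.47 and 0.63). In the annotation, 30.9% of the exonic bases of HIST1H2BC are also covered by exons of other genes, so part of its reads may have been left out or assigned elsewhere by the authors' counting.

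HIST1H3E was the H3 gene with the highest level. It held 26, 27 and 27 counts in WT and 94, 59 and 89 counts in knockout cells. The lowest METTL3-KO sample had more than the highest WT sample also as CPM, 2.68 against 1.27. The log2 fold change came to 1.50 (SE 0.209, adjusted p = 0.000264, edgeR), and 1.46 without both replicates 3.

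The changes in the remaining genes that passed were smaller or rested on fewer counts. HIST1H1C, which encodes a linker histone, was at 3.79, 3.27 and 2.53 CPM in WT and 4.74, 4.82 and 4.80 CPM in knockout cells (log2 fold change 0.57, SE 0.158, adjusted p = 0.0189, edgeR). HIST3H2A, the H2A gene of the HIST3 cluster, was at 4.99, 5.71 and 4.74 CPM in WT and 6.80, 6.96 and 7.87 CPM in knockout cells (log2 fold change 0.48, SE 0.126, adjusted p = 0.0135). HIST1H2BJ, an H2B gene, held 9, 7 and 11 counts in WT and 33, 23 and 14 counts in knockout cells (log2 fold change 1.26, SE 0.364, adjusted p = 0.0227). In all 3 genes every METTL3-KO sample lay above every WT sample, though METTL3-KO replicate 3 of HIST1H2BJ, at 0.595 CPM, was close to WT replicate 3, at 0.516 CPM. These 3 were also the genes whose call depended on single samples. HIST1H1C did not pass without METTL3-KO replicate 1 (adjusted p = 0.0573, edgeR) or 2 (0.0646), nor HIST3H2A without WT replicate 1 (0.0534) or METTL3-KO replicate 3 (0.0516), and HIST1H2BJ did not pass in 4 of the 6 fits (0.0741 to 0.107). Without both replicates 3 all 3 passed, with log2 fold changes of 0.43, 0.37 and 1.73.

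**Figure D1:**
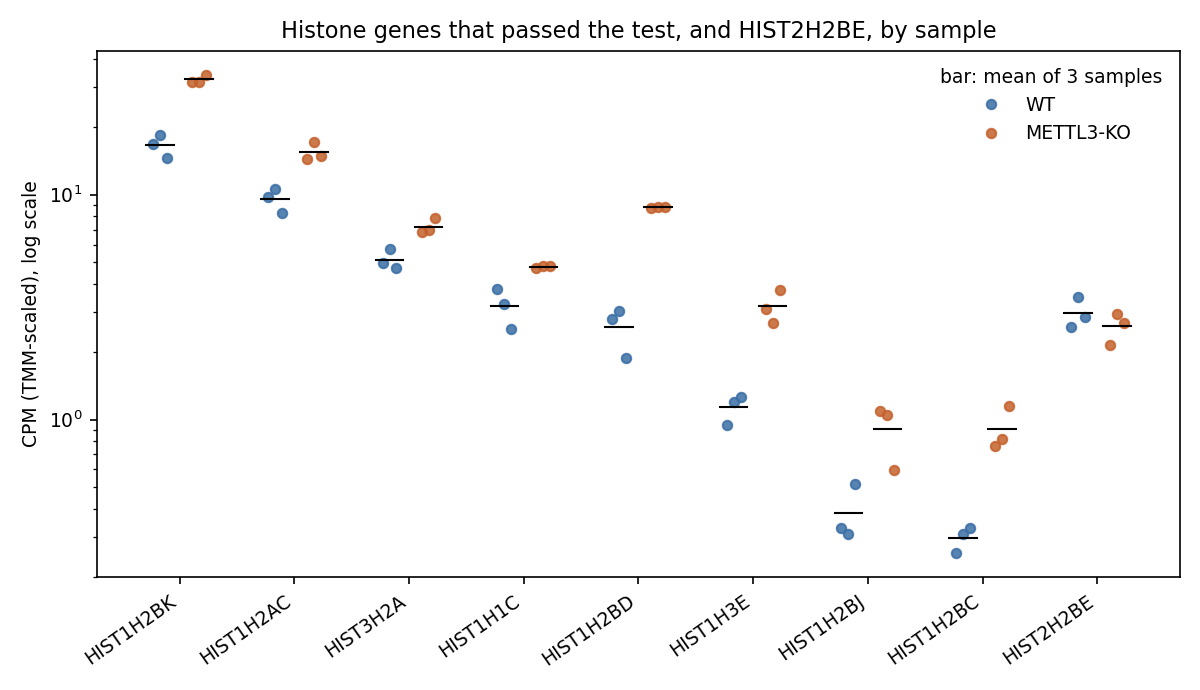
CPM (TMM-scaled, log axis) in each of the 3 WT and 3 METTL3-KO samples for the 8 histone genes that passed the test and for HIST2H2BE; each point is a sample and each bar the mean of 3. The METTL3-KO points lie above all WT points in the 8 genes, most narrowly in HIST1H2BJ (0.595 against 0.516 CPM), and overlap with them in HIST2H2BE.

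Of the 7 genes taken as known to make polyadenylated mRNA, HIST1H1C, HIST1H2AC, HIST1H2BC, HIST1H2BD, HIST1H2BJ and HIST1H2BK rose and HIST2H2BE did not. HIST2H2BE, the H2B gene of the HIST2 cluster with the most counts, was at 2.59, 3.49 and 2.86 CPM in WT and 2.16, 2.96 and 2.68 CPM in knockout cells. The groups overlapped (log2 fold change -0.21, SE 0.185, adjusted p = 0.457, edgeR). With 404 counts in total it was deeper than HIST1H2BC, HIST1H2BJ and HIST1H3E, which passed. Each of the 7 held at least 89 counts in total, and of all tested genes with 60 or more counts 17.6% were called higher. The calls of HIST1H1C and HIST1H2BJ depended on single samples, as given above. The 7 genes had a median log2 fold change of 0.97. They were listed with earlier results of these data known, and the count is no independent evidence of a direction.

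The reads of a gene with a longer model past the stem-loop can come from mRNA that was not cut there. Exons annotated past the stem-loop ran over 100 bases in 13 of the 31 genes, from 375 bases in HIST1H2BD to 4551 in HIST3H2BB, and in the other 18 genes they ended 4 to 11 bases after it. Of the 13 genes 6 rose, with a median log2 fold change of 0.70. Of the 18 genes 2 rose, HIST1H1C and HIST1H2BK, with a median of 0.15. The share that rose over all tested genes was 13.3%, which is near that of the 18 genes. By depth, this share was 17.6% of all tested genes with 60 or more counts in total and 2.82% of those with 10 to 59. The 13 genes were also the deeper ones, with a median of 103 counts in total against 35, and the part of depth in this difference was not tested. A long model did not go with a change in every case. HIST1H4H, with 1655 bases past the stem-loop, and HIST4H4, with 1510, both had a log2 fold change of -0.03 (SE 0.523 and 0.312), and HIST1H2BN, with 3699, had one of 0.25 (SE 0.329).

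By type, 4 of 13 H2B genes rose, 2 of 7 H2A genes, 1 of 3 H1 genes, 1 of 7 H3 genes and 0 of 5 H4 genes. For these counts and those by cluster, the share over all tested genes was 13.3%. The median log2 fold changes were 0.42 for H2B, 0.47 for H2A, 0.57 for H1, -0.10 for H3 and -0.03 for H4. These differences between types were not tested, and the 5 H4 genes held only 14 to 125 counts each in total. By cluster, 7 of 26 HIST1 genes and 1 of 3 HIST3 genes rose, and 0 of 5 HIST2 genes and the single HIST4 gene did not pass.

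**Figure D2:**
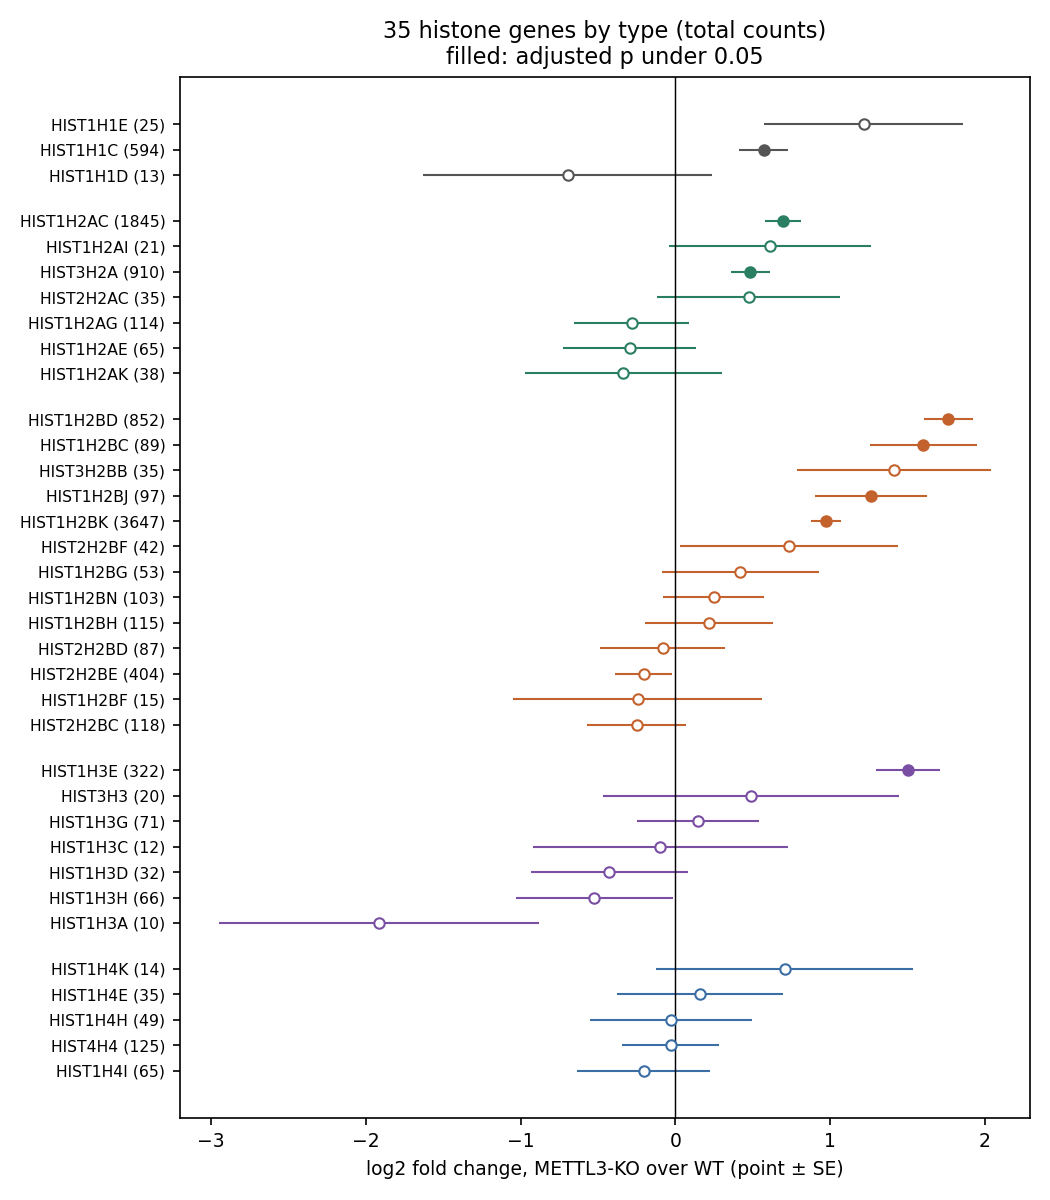
Log2 fold change (METTL3-KO over WT, point ± SE) of the 35 histone genes grouped by type, with the total counts over 6 samples in brackets; filled points passed an adjusted p under 0.05. The 8 filled points are all above 0, and the widest errors belong to genes with few counts such as HIST1H3A (10 counts).

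Among the H1 genes, HIST1H1E held 3, 1 and 3 counts in WT and 10, 4 and 4 in knockout cells, where the groups did not overlap as CPM but the change did not pass (log2 fold change 1.22, SE 0.641, adjusted p = 0.192, edgeR). Over all tested genes, 20.2% had every METTL3-KO sample above every WT sample, against 9 of the 35 histone genes. HIST1H1D held 8 counts in WT and 5 in knockout cells. The linker histone level was therefore carried by HIST1H1C, with 594 of the counts.

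HIST1H2AG, the third most abundant H2A gene, stood at 0.868 ± 0.255 CPM in WT and 0.716 ± 0.341 in knockout cells (mean ± SD of 3 samples), a difference within the spread. It is the divergent partner of HIST1H2BJ, 248 bases away, with a log2 fold change of -0.28 (SE 0.370) against 1.26 for HIST1H2BJ. HIST3H2A and HIST3H2BB are 230 bases apart, and HIST3H2BB held 6, 1 and 2 counts in WT and 13, 9 and 4 in knockout cells, with overlapping CPM (log2 fold change 1.41, SE 0.626, adjusted p = 0.121, edgeR). Of the 5 divergent pairs in which both genes are among the 35, at 170 to 248 bases, both genes passed in 1, 1 gene in 2 and none in 2. The share that rose was 13.3% over all tested genes and 17.6% over those with 60 or more counts in total. The differences within pairs were not tested.

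The H3 and H4 genes other than HIST1H3E held 10 to 125 counts in total, and none passed the test. HIST1H3H was at 0.533 ± 0.357 CPM in WT and 0.366 ± 0.134 in knockout cells, and HIST1H3G at 0.448 ± 0.169 and 0.515 ± 0.120 (mean ± SD of 3 samples). HIST1H3A, at the minimum of 10 counts, held 1, 3 and 4 counts in WT and 1, 1 and 0 in knockout cells. None of these genes passed the test, and for HIST1H3A the log2 fold change was -1.91 with a standard error of 1.04. Of the H4 genes, HIST4H4 was at 0.882 ± 0.316 CPM in WT and 0.848 ± 0.0177 in knockout cells, HIST1H4I at 0.482 ± 0.0879 and 0.423 ± 0.228, and HIST1H4H at 0.334 ± 0.178 and 0.326 ± 0.135. Here too the groups overlapped, and the standard errors of the log2 fold changes, 0.312 to 0.523, leave room for changes as large as those of HIST3H2A or HIST1H1C.

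Summed over the 35 genes, the level was 51.5, 55.7 and 46.1 CPM in WT and 83.2, 88.3 and 86.4 CPM in knockout cells, a ratio of 1.68. The groups did not overlap. Without HIST1H2BK the log2 ratio was 0.63, against 0.75 with it. The 27 genes that did not pass summed to 12.3 ± 0.475 CPM in WT and 12.1 ± 1.93 in knockout cells (mean ± SD of 3 samples), and these groups overlapped. The rise of the whole sum lay in the 8 genes that passed. They were picked by the same values, which by itself makes such a split between passing and other genes likely. The sums of H2B were 26.4 ± 2.47 CPM in WT and 49.9 ± 1.04 in knockout cells, and those of H2A 16.6 ± 1.85 and 24.5 ± 1.74 (mean ± SD of 3 samples). For H1 they were 3.40 ± 0.680 and 5.09 ± 0.0961, for H3 2.70 ± 0.400 and 4.54 ± 0.276, and for H4 1.99 ± 0.311 and 1.96 ± 0.468. The sum of H3 rested on HIST1H3E, since without it the log2 ratio went from 0.75 to -0.22. The sum of the HIST1 cluster in knockout cells was 1.83-fold that in WT with no overlap, while those of HIST2, 4.90 ± 0.760 CPM in WT and 4.51 ± 0.226 in knockout cells, overlapped. In bulk samples, fewer cells of a kind and less RNA per cell cannot be told apart.

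**Figure D3:**
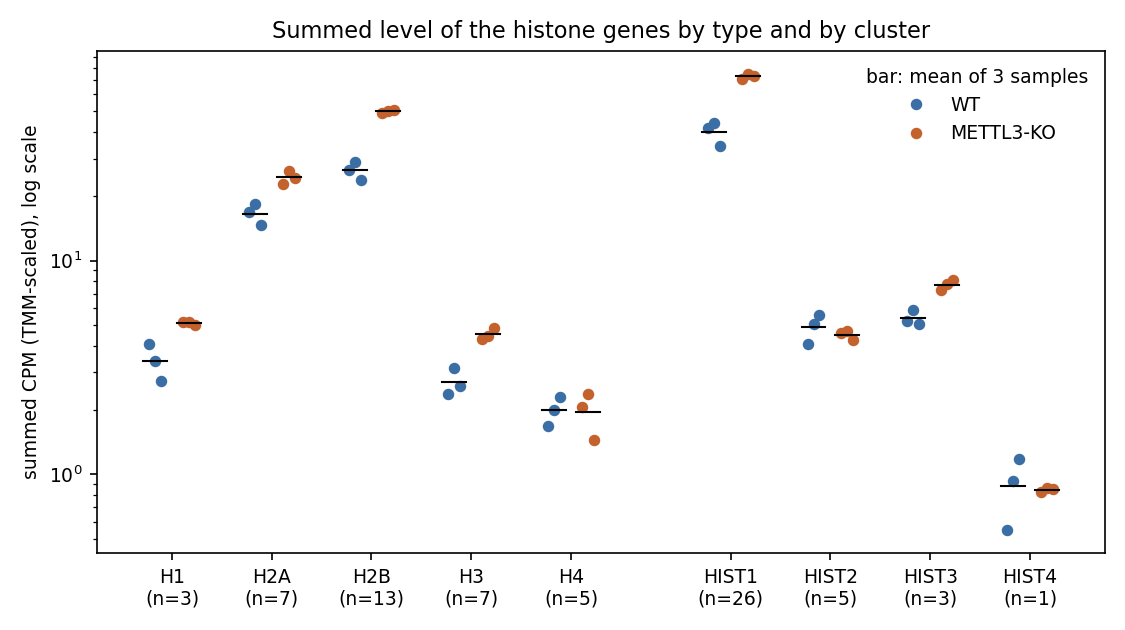
Summed CPM (TMM-scaled, log axis) of the histone genes of each type and of each cluster, with the number of genes in brackets; each point is 1 of 3 samples per group and each bar their mean. The METTL3-KO points lie above all WT points for H1, H2A, H2B, H3, HIST1 and HIST3, and the groups overlap for H4, HIST2 and HIST4.

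Compared per kilobase of annotated exon, HIST1H2BK was the highest of the 33 matched genes, at 33.5 CPM per kilobase in WT and 65.8 in knockout cells. Next in WT came HIST1H2AC at 5.71 and HIST1H1C at 4.37, followed by HIST1H2BD at 2.99 and HIST3H2A at 2.78. In METTL3-KO cells HIST1H2BD, at 10.2 CPM per kilobase, stood above HIST1H2AC, at 9.29. These levels depend on the gene model, since the exons of HIST1H2BK end at the stem-loop in this annotation.

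The 41 histone rows under 10 counts included 18 at 0 in every sample. HIST1H1B and HIST1H2BI, with 9 counts each, were just outside the minimum and HIST1H3A, with 10, just inside. Reads that matched more than 1 place were not counted by the authors, which bears on near-identical copies. Of the 41 rows, 12 share over 10% of their 150-base windows with another histone row, among them HIST2H2AA3 and HIST2H2AA4, HIST2H3A and HIST2H3C, and HIST2H4A and HIST2H4B. Of the 35 genes 4 do, namely HIST1H2AI, HIST1H4K, HIST2H2BC and HIST2H2BD, and their values are uncertain. HIST2H2BC and HIST2H2BD are annotated as pseudogenes and lie wholly within exons of other annotated genes. Exons of other genes also cover 96.6% of the exonic bases of HIST1H3D and 13.3% of those of HIST1H4H, both among the 35. Part of the reads of these genes may have been left out or assigned elsewhere. Of 4 histone genes known from testis, HIST1H1T, HIST1H2AA and HIST1H2BA were at 0 in all samples and HIST3H3 held 20 counts in total, with a log2 fold change of 0.49 (SE 0.954).

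Variant histones are encoded by genes outside the naming rule used here. Most of these genes make polyadenylated mRNA and many are active outside S phase as well, though this does not hold for every gene of the list. Of 12 variant histone genes, 1 rose and 3 fell, with a median log2 fold change of -0.06. At 60 or more counts in total, 17.6% of all tested genes rose and 17.8% fell, and these counts are near those shares. H2AFJ, an H2A variant, was at 55.5 ± 6.86 CPM in WT and 88.2 ± 10.8 CPM in knockout cells, mean ± SD of 3 samples (log2 fold change 0.67, SE 0.109, adjusted p = 0.000777, edgeR). H2AFX, whose product is phosphorylated at DNA breaks, fell from 118, 112 and 91.9 CPM to 64.8, 64.2 and 74.4 CPM (log2 fold change -0.66, SE 0.101, adjusted p = 0.000471), and H2AFV fell by 0.47 and H3F3B, an H3.3 gene, by 0.29 on the log2 scale. The groups were apart in all 4 genes, which were named because they passed. Over all tested genes, 20.2% had every METTL3-KO sample above every WT sample and 20.7% below. H2AFX, H2AFV and H2AFJ passed with each sample left out, and H3F3B did not pass without METTL3-KO replicate 1 or 2 or WT replicate 1 (adjusted p = 0.0544 in the first case, 0.0779 in the second and 0.0505 in the third, edgeR).

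Of 22 genes for transcription, 3′ end formation, translation and decay of histone mRNA, 5 rose and 4 fell, with a median log2 fold change of -0.13, which again is near the shares of 17.6% and 17.8% among all genes of 60 or more counts. The terminal uridylyltransferase gene ZCCHC6 (TUT7) rose by 0.67 (SE 0.106, adjusted p = 0.000629, edgeR), CSTF2, which encodes the cleavage factor CstF-64, by 0.40 (SE 0.0707, adjusted p = 0.00123) and CTIF, a translation factor, by 0.35 (SE 0.0834, adjusted p = 0.00905) on the log2 scale. POU2F1, the gene of the octamer-binding factor, fell by 0.46 (SE 0.114, adjusted p = 0.0100) and NCBP1, a cap-binding subunit, by 0.29 (SE 0.0789, adjusted p = 0.0165), though NCBP1 did not pass without METTL3-KO replicate 2 (0.0737) or 3 (0.0643). The 4 that fell were 1 or 2 without WT replicate 1 or any one METTL3-KO replicate, and 6 without WT replicate 3. SLBP itself had -0.15 (log2, SE 0.0848, adjusted p = 0.216) and NPAT, the coactivator of histone genes in S phase, at -0.25 (SE 0.112, adjusted p = 0.124), and neither passed. SLBP and NPAT were named for their roles after their values were seen.

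Of 23 histone chaperone and deposition genes, 2 rose and 11 fell, with a median log2 fold change of -0.30. Among all tested genes with 60 or more counts in total, 17.6% rose and 17.8% fell. The 2 that rose, CABIN1 and DAXX, were 0 without METTL3-KO replicate 1 or 3 or WT replicate 1 or 2, 1 without METTL3-KO replicate 2 and 3 without WT replicate 3, and the 11 that fell were 8 to 13 with a sample left out. HJURP, the chaperone of the centromeric variant CENPA, was at 78.9, 75.9 and 82.7 CPM in WT and 53.3, 53.6 and 53.9 CPM in knockout cells (log2 fold change -0.56, SE 0.0711, adjusted p = 0.000138, edgeR). CHAF1B, a subunit of the assembly factor CAF-1, fell by 0.54, MMS22L, which binds new H3-H4 at forks, by 0.52, NASP, which holds the soluble H3-H4 pool, by 0.51 and NAP1L4, an H2A-H2B chaperone, by 0.51 on the log2 scale. In each of these 5 genes all METTL3-KO samples lay below all WT samples, as in 20.7% of all tested genes. The 5 were named as passing genes with the largest changes, which makes such a separation likely.

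Of 18 genes of S phase entry and DNA synthesis, 0 rose and 13 fell, with a median log2 fold change of -0.46. The shares among all tested genes with 60 or more counts in total were 17.6% and 17.8%. TYMS, which makes thymidylate, was at 26.8, 23.8 and 27.3 CPM in WT and 13.5, 13.4 and 11.4 CPM in knockout cells (log2 fold change -1.02, SE 0.100, adjusted p = 2.35e-05, edgeR). RRM1 and RRM2, the subunits of ribonucleotide reductase, both fell by 0.71, MCM2, a helicase subunit, by 0.67 and CDT1, a licensing factor, by 0.64 on the log2 scale. Summed, the 18 genes stood at 1568 ± 60.4 CPM in WT and 1098 ± 19.7 in knockout cells (mean ± SD of 3 samples). The 8 histone genes that passed and the 13 S phase genes that passed thus went in opposite directions in the same samples. Both sets hold only genes picked by passing, and the number of cells in S phase was not measured in these data.

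**Figure D4:**
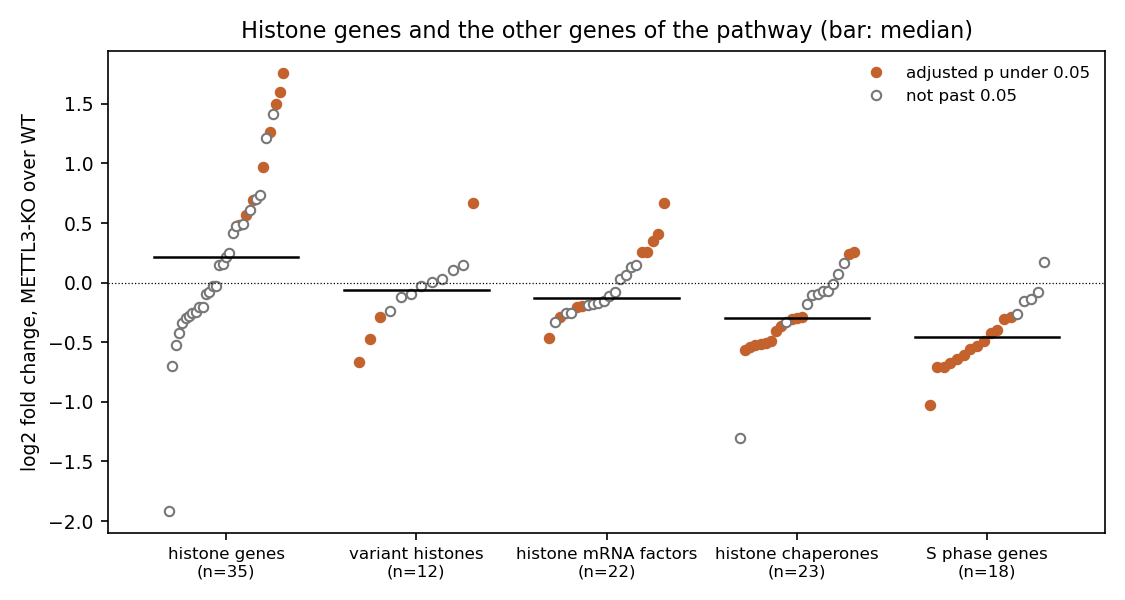
Log2 fold change (METTL3-KO over WT) of each tested gene in the 35 histone genes and 4 lists of related genes; filled points passed an adjusted p under 0.05 and bars are medians. The medians are 0.22 for the histone genes, -0.06 for variant histones, -0.13 for histone mRNA factors, -0.30 for chaperones and -0.46 for S phase genes.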

How the data were processed

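RNA-seq of 3 WT and 3 METTL3-KO samples was used. Per the submitters' processing notes, the authors aligned reads with TopHat2 2.0.11 to hg19 (GRCh37) and used HTSeq to count them on genes. The deposited values are whole-number raw counts for each symbol, neither normalized nor pooled. Reads in no gene, in several genes or at several places, 28.2% to 30.7% of each sample's total, were set apart by the authors and left out here. Genes with at least 5 counts in total in either group were kept (22452 genes) and compared with edgeR 4.0.16 (R 4.3.3), using TMM, the quasi-likelihood test, two-sided, and Benjamini-Hochberg adjustment. On simulated counts with 200 of 21742 genes changed by a log2 fold of 1, it called 187 of them and 12 others. The changed genes were drawn from those above 1 CPM, and the simulation held no length effect of replicate 3. It therefore says little about genes at lower levels, such as HIST1H2BC at a mean of 0.298 CPM in WT and 0.910 in knockout cells. CPM use the TMM-scaled library size. Alternatives were DESeq2 1.42.0, RLE scaling, other filters, omitted samples, a replicate block, and offsets for transcript length and GC content.

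The genes and lists were chosen with earlier results of these data known. Named are the genes that passed, the 3 most abundant of each type, those at the count minimum, METTL3, the 7 genes with known polyadenylated mRNA, and up to 5 passing genes of each list with the largest change; other names follow a stated reason. Gene positions and stem-loops came from GENCODE release 44 on GRCh37, promoters from RefSeq. The authors' own gene models may differ. The deposited files name the samples NC and SiM3 and number the WT samples otherwise than the labels do. Groups and numbers were taken from the labels.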

Additional observations from a re-analysis of the deposited data

How the results depend on the processing

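The 8 histone genes called higher were also 8 under DESeq2, RLE scaling, both other gene filters, the correction for length and GC content and a minimum of 60 counts, 9 without both replicates 3 (HIST2H2BF was added, log2 fold change 1.81, adjusted p = 0.0159, edgeR) and 6 to 8 with each sample left out. No setting called a histone gene lower. With a replicate block 5 were higher, since HIST1H1C, HIST3H2A and HIST1H2BJ did not pass (adjusted p = 0.0558, 0.0605 and 0.0768, edgeR). H1 and HIST3 then had 0 and H2A 1, and HIST1H2BJ alone did not pass (0.0661) with block and correction together. The same-numbered samples deviated in opposite directions (correlations -0.586, -0.390 and -0.784). Deviations were taken from the mean of a group, so a replicate 3 that stands apart pushes replicates 1 and 2 the other way. These correlations can therefore neither show nor exclude pairing, and the labels name none. Unlike numbers correlated positively where 1 of them was replicate 3 (0.719 and 0.632 for METTL3-KO replicate 3 with WT replicates 1 and 2, 0.657 and 0.505 for WT replicate 3 with METTL3-KO replicates 1 and 2) and at -0.482 and -0.546 otherwise. With each sample left out, H1 and HIST3 ran from 0 to 1 and H2A from 1 to 2; HIST2 had 1 without both replicates 3. Over all genes, the block gave 1810 higher and 1719 lower, and leaving out both replicates 3 gave 4555 and 4823, in a fit with fewer samples. Variant histones called lower were 7 without both replicates 3 and 2 to 5 with a sample left out. Histone mRNA factors called higher were 2 with the block, 3 with block and correction, and 3 to 5 with a sample left out; those called lower were 0, 8 without both replicates 3, 7 with the correction, and 1 to 6 with a sample left out. Chaperones called higher were 0 with the block, 1 with block and correction, 5 without both replicates 3, and 0 to 3 with a sample left out. Without its largest gene, the log2 ratio of a sum was 0.63 over all genes, 0.35 for H2A, 0.82 for H2B, 1.08 for HIST3 and -0.22 for H3. Genes near 0 changed sign. HIST1H4H was at 0.53 without both replicates 3, at 0.0071 with the correction and at 0.021 with correction and block, HIST4H4 at 0.22 and, with correction and block, 0.026, HIST1H3G at -0.10 and HIST1H4I at 0.0096 without both replicates 3. With a sample left out, HIST1H3H ran from -0.84 to 0.11, HIST1H3G from -0.083 to 0.48, HIST4H4 from -0.31 to 0.23, HIST1H4I from -0.68 to 0.035 and HIST1H4H from -0.38 to 0.26. The cause was not tested. Depth limits the 16 genes under 60 counts most, of which only HIST2H2BF passed, and only without both replicates 3.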
